A study of Homo sapiens with 2 samples.

Results

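The inhibitor of apoptosis proteins (IAPs) XIAP, BIRC2, BIRC3 and BIRC6 and the mitochondrial IAP antagonists DIABLO and HTRA2 were examined by RNAseq in breast cancer cells treated with cisplatin. These 6 genes were chosen by name, through their Entrez gene IDs, and all 6 were found among the 23033 genes with a deposited value. The control cells carry the genotype WT in their label, and the compared cells carry FZR1 ko, a knockout of the APC/C activator FZR1 made with CRISPR/Cas9. Both cultures bear the label T-47D, the name of a luminal line from breast cancer, and both received cisplatin at 2 µg/ml, while the time of treatment is not given for these libraries. The knockout line was raised from a single cell, so the loss of FZR1 and any other property of that clone cannot be told apart. Each condition is represented by 1 library, and therefore no difference below has a replicate check and no test was made. Cells without cisplatin were not analysed here, so the values compare genotypes under the drug and not the drug itself.

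IAPs share the BIR domain, a zinc-binding fold through which they hold other proteins. XIAP binds and blocks caspases directly, BIRC2 (cIAP1) and BIRC3 (cIAP2) are RING ubiquitin ligases that act in TNF receptor signalling and keep the kinase NIK low, and BIRC6 is a giant ubiquitin-conjugating protein. DIABLO (SMAC) and HTRA2 (Omi) are kept between the mitochondrial membranes, and after their release the trimmed N-terminus of each occupies the BIR groove and displaces the caspases.

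Levels are given as FPKM, fragment numbers scaled by transcript length and by the mapped fragments of the library, so that genes of one library can be set against each other. Differences are given as the log2 ratio, the log2 of (FPKM + 1) in the knockout divided by (FPKM + 1) in control, and this ratio is damped for low genes. A gene was counted when its log2 ratio was at least 1 or at most -1, that is 2-fold. A gene was kept when either library reached 1 FPKM, which left 13554 genes with a median log2 ratio of -0.0048.

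FZR1 itself had 12.28 FPKM in control cells against 10.1 FPKM in FZR1 ko, with a log2 ratio of -0.26, and this level does not check the knockout, since CRISPR/Cas9 alters the sequence of a gene rather than its transcription. Of the 9 luminal markers examined, ESR1, PGR, GATA3, CDH1 and KRT19 were below 1 FPKM in both libraries, which goes against the luminal label, whereas KRT8 and KRT18 were high, and PGR was listed at 0 in FZR1 ko. The mesenchymal filament gene VIM had 314.55 and 294.79 FPKM, so the markers leave the labelled line in doubt for both libraries. The summed level of these 9 genes was 1390 FPKM in control cells against 1760 FPKM in FZR1 ko. Nearly all of it came from KRT8 (829.25 and 998.28 FPKM) and KRT18 (552.48 and 740.04 FPKM), so it does not describe the 9 genes as a set. The sum of 7 basal and mesenchymal markers was 430 and 376 FPKM, most of it from VIM. Of the 4 luminal markers kept 3 were higher in FZR1 ko and 1 lower, and of the 5 others kept 2 were higher and 3 lower. EPCAM was more than 2-fold higher in FZR1 ko (3.9 and 11.48 FPKM, log2 ratio 1.35, and 0.89 with a pseudocount of 5 FPKM), as was CDH2 (2.97 and 15.31 FPKM), and the part of such differences in the results on the IAP genes was not tested. The number of reads is not part of the deposited values. The lowest value above 0 among 39 olfactory receptor genes of about a kilobase was 0.06 FPKM in both libraries. In control 1 of the 5 genes above 0 had this value, and in FZR1 ko 6 of 8 had it. It was taken as close to what 1 fragment gives at that length, which for control rests on 1 gene. On this scale BIRC6, the lowest of the 6 genes, lay at 24 such steps in control and 48 in FZR1 ko, and its transcript is many times longer, so its value rests on more fragments than that.

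Among the 6 genes, BIRC2 was the only one past 2-fold, and it was lower in FZR1 ko. XIAP, BIRC3, DIABLO and HTRA2 were lower by less than 2-fold, and BIRC6 was higher by less than 2-fold on this scale. The median log2 ratio was -0.36 over the 4 IAP genes, or -0.59 with a trend of the ratio with transcript length removed, and -0.33 over all 6 genes. Thus 1 of 6 genes was past 2-fold in the lower direction, beside 6.72% of all genes kept, and none was in the higher direction, beside 6.78% of all genes, and in either direction the share of all genes was 13.5%. With so few members, these counts do not set the group apart from the background. A lower FPKM in a bulk library may come from fewer cells with the transcript or from less of it per cell, and these cannot be told apart.

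**Figure D1:**
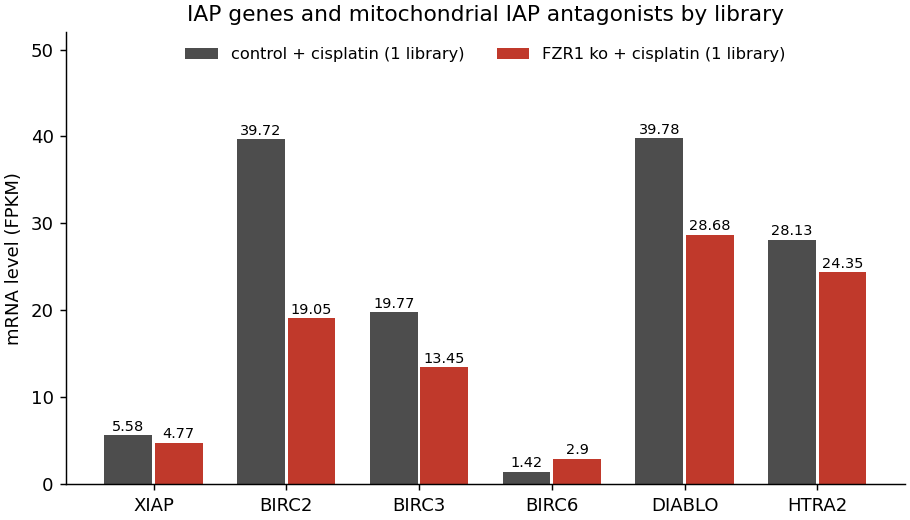
mRNA level in FPKM (vertical axis) of the 6 genes (horizontal axis) in the control library (grey bars) and the FZR1 ko library (red bars), both with cisplatin and with 1 library each, so there are no error bars. BIRC2 stood at 39.72 FPKM in control cells against 19.05 FPKM in FZR1 ko, and BIRC6 was the only gene with the taller red bar.

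The 6 genes covered a wide range of levels. In control, DIABLO (39.78 FPKM) and BIRC2 (39.72 FPKM) stood at the top, followed by HTRA2, BIRC3, XIAP and BIRC6. In FZR1 ko the order was DIABLO, HTRA2, BIRC2, BIRC3, XIAP and BIRC6, so BIRC2 moved below HTRA2. With single libraries it is not known which neighbours in these orders differ beyond replicate spread. Of the 4 IAP members, BIRC2 was therefore the highest in both libraries, while XIAP, the direct caspase inhibitor, was among the low ones.

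BIRC2 (Entrez gene 329) is a plus-strand gene of chromosome 11 (hg38), from 102347214 to 102378670. It had 39.72 FPKM in control cells against 19.05 FPKM in FZR1 ko, with a log2 ratio of -1.02. The control library was the high one, and the value lay just past the 2-fold limit. Of all genes kept, 860 (6.34%) had a lower log2 ratio than BIRC2. Among the genes with a mean between 20 and 50 FPKM, as for BIRC2, 9.87% were past 2-fold. With a pseudocount of 5 FPKM in place of 1 the log2 ratio of BIRC2 was -0.89, within 2-fold, where 1.99% of all genes were past 2-fold in the lower direction.

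BIRC3 (Entrez gene 330), the close relative of BIRC2, is its neighbour on the same strand of chromosome 11, from 102317484 to 102339403, with 7810 bases between the genes. It had 19.77 FPKM in control cells against 13.45 FPKM in FZR1 ko, with a log2 ratio of -0.52, again with the higher value in control. The ratio of BIRC2 to BIRC3 was 2.01 in control and 1.42 in FZR1 ko. The transcripts of the pair are similar, yet of the 3715 stretches of 50 bases in the main BIRC2 transcript only 11 (0.296%) also occur in BIRC3, so a swap of reads between them is limited to that part at this length.

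**Figure D2:**
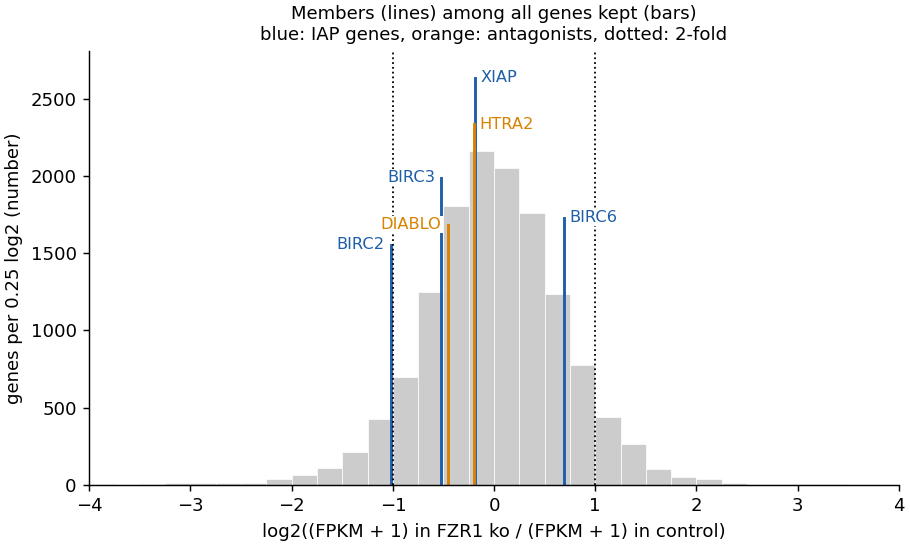
Distribution of the log2 ratio of FZR1 ko over control for the 13554 genes kept (grey bars, number of genes per step of 0.25 on the log2 scale), with the 4 IAP genes as blue lines and the 2 antagonists as orange lines. The height of a line has no meaning. BIRC2 lies at the lower dotted line that marks 2-fold, BIRC6 lies on the higher side at 0.69, and the other 4 lie from -0.52 to -0.19.

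BIRC3 is a well-known target of NF-kB, the transcription factor activated through the receptor complexes in which the BIRC3 protein acts, whereas BIRC2 is expressed more constantly in most cells. The stretch before each start site is shown because the neighbours differ there. The 250 bases before the RefSeq start of BIRC3 (GRCh38.p14, chr11:102317234-102317483, plus strand) hold a pair of matches to the NF-kB consensus, and these are in capitals. For BIRC2, 30 bases around its start (chr11:102347196-102347225, plus strand) are given with a TGACGTCA motif, the cAMP response element, in capitals.
BIRC3: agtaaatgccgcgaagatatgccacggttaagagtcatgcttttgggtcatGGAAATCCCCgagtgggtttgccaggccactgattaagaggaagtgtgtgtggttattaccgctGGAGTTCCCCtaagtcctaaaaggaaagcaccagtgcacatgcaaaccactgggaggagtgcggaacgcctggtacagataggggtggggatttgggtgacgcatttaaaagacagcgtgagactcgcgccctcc
BIRC2: gccgggcgcgcTGACGTCAtcgtgcgtcag

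Positions are counted with the start site as 1 and no 0. The NF-kB matches of BIRC3 lie at -199 to -190 and -135 to -126 and read GGGGATTTCC and GGGGAACTCC on the minus strand. A window of 250 bases before to 50 bases after the start was searched on both strands for the NF-kB consensus, TGACGTCA and TGACTCA, the AP-1 motif, and no match overlapped another. At least 1 NF-kB match was present in 5.91% of all 35116 promoter windows, and at least 2 in 0.738%. The TGACGTCA of BIRC2 spans -7 to 1, it is held by both RefSeq windows of the gene, and the motif occurs in 1.85% of all windows. TGACTCA, found in 4.95% of windows, was in none of the windows of the 6 genes. Of the other members, BIRC6 held 1 NF-kB match, GGGGGTCCCC from -215 to -206, and the windows of XIAP, DIABLO and HTRA2 held none of these motifs. These matches describe the letters of the reference genome and say nothing of binding in these cells.

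The NF-kB targets other than BIRC3 were lower in FZR1 ko as well. Of 18 genes kept from a list of 19, 17 had a lower value in the knockout and 1 a higher one, 7 were past 2-fold in the lower direction and 0 in the higher one, and the median log2 ratio was -0.77. Over all genes kept, 6.72% were past 2-fold in the lower direction and 6.78% in the higher one, and 6812 of 13554 had the lower value in FZR1 ko. The higher one, NFKB1, a subunit of NF-kB, had a log2 ratio of 0.14, which was -0.035 with the length trend removed. Of the 7 genes, CCL20 was kept through its control value alone, and 6 remained with at least 1 FPKM in both libraries. Most of this pattern had been seen in earlier work on these libraries, so it is no independent support. With the pseudocount of 1 FPKM, the largest differences were those of the chemokines CXCL8 (185.99 FPKM in control cells against 18.68 FPKM in FZR1 ko, log2 ratio -3.25) and CCL20 (10.14 and 0.28 FPKM, -3.12) and of TNF (11.1 and 1.01 FPKM, -2.59). CXCL3, another chemokine, had 7.16 and 2.13 FPKM (-1.38, and -0.77 with a pseudocount of 5 FPKM). IER3, an early response gene and the highest of the list by the mean of both libraries, had 430.85 and 118.99 FPKM (-1.85), below SOD2 (127.93 FPKM) in FZR1 ko. With a pseudocount of 5 FPKM, IER3 (-1.81) had a larger difference than CCL20 (-1.52) and TNF (-1.42), while CXCL8 (-3.01) stayed the largest of the list. BIRC3 at -0.52 thus lay on the same side as the list, with a smaller difference than its median. Of the 16 list genes with a promoter window, 11 held an NF-kB match, beside 7.09% of all genes with a window. Of the 7 genes past 2-fold, only CCL20 and CXCL3 were among these 11, which also include NFKB1 and LTB, a gene not kept. The list was chosen as NF-kB targets, so a share above that of all genes says nothing about the lower values.

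The complexes in which BIRC2 and BIRC3 act went both ways. Of 20 genes of the TNF receptor and NIK complexes, all kept, 11 had the lower value in FZR1 ko and 9 the higher, with a median log2 ratio of -0.04, and 1 was past 2-fold, in the lower direction (6.72% of all genes). That gene was CYLD, a deubiquitinase that removes chains placed in the receptor complex, with 10.75 FPKM in control cells against 3.47 FPKM in FZR1 ko (-1.39, and -0.89 with a pseudocount of 5 FPKM). The scaffold TRAF2, which carries BIRC2 and BIRC3 into these complexes, had 25.92 and 33.07 FPKM (0.34). TRAF3, which with TRAF2 holds NIK for degradation, had 3.07 and 6.08 FPKM (0.80), and NIK itself (MAP3K14) had 5.53 and 8.02 FPKM (0.47). TRAF1, an NF-kB target in the same family, had 3.73 and 1.56 FPKM (-0.89, and -1.26 without a pseudocount). RBCK1, the highest of the list and a subunit of the linear ubiquitin ligase, was nearly equal at 71.81 and 72.37 FPKM (0.01).

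**Figure D3:**
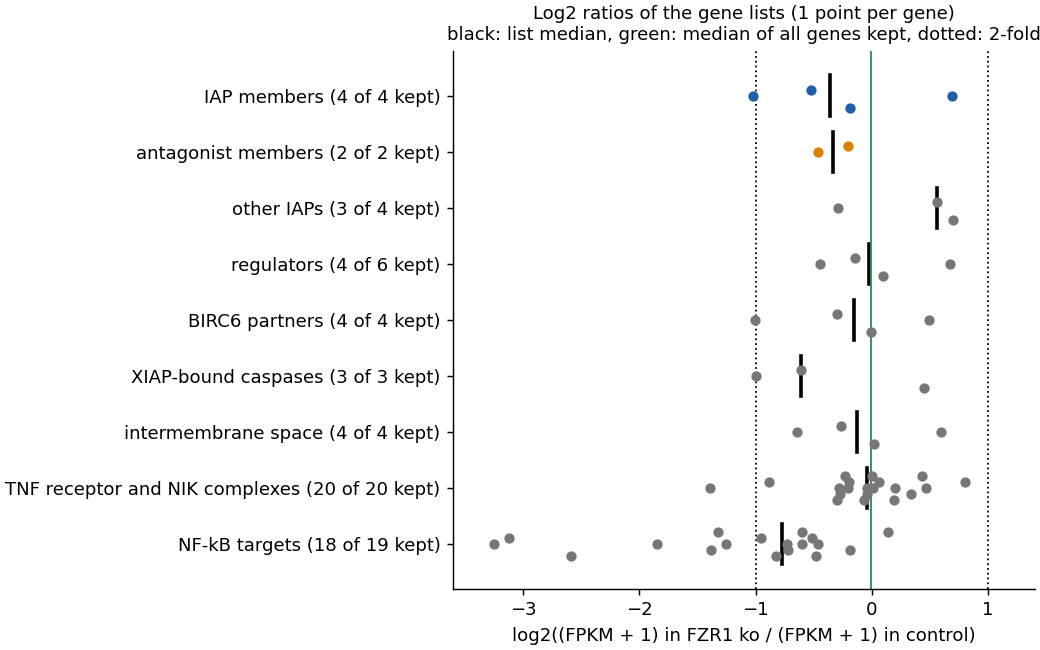
Log2 ratio of FZR1 ko over control (horizontal axis) of each gene kept in the lists (rows, 1 point per gene, spread vertically only to keep points apart), with the list median as a black bar and the median of all genes as a green line. The NF-kB targets have a median of -0.77 and reach -3.25, the 20 genes of the receptor complexes have a median of -0.04, and the dotted lines mark 2-fold.

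XIAP (Entrez gene 331), on the plus strand of chromosome X from 123859708 to 123913972, had 5.58 FPKM in control cells against 4.77 FPKM in FZR1 ko. The log2 ratio was -0.19, and 38.0% of all genes kept had a lower one. CASP9, the initiator caspase of the mitochondrial pathway, which XIAP binds, had 7.97 FPKM in control and 11.23 FPKM in the knockout (log2 ratio 0.45). It thus stood above XIAP in both libraries and, unlike XIAP, had the higher value in FZR1 ko.

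BIRC6 (Entrez gene 57448), on the plus strand of chromosome 2 from 32357023 to 32618878, was the only member with a higher value in FZR1 ko. It had 1.42 FPKM in control cells against 2.90 FPKM in FZR1 ko, with a log2 ratio of 0.69, and 85.6% of the genes kept had a lower one. Without a pseudocount its log2 ratio was 1.03, past 2-fold, where 10.7% of the genes above 0 in both libraries were past 2-fold in that direction. Among genes with a mean between 1 and 5 FPKM, as for BIRC6, 17.1% were past 2-fold in either direction with the pseudocount.

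BIRC6 also has by far the longest transcript of the 6, at 15687 bases in 74 exons, and the log2 ratio moved with transcript length over all genes. The median log2 ratio was -0.13 in the shortest of 10 equal groups of genes and 0.30 in the longest, which holds BIRC6 and XIAP. With the median of each length group subtracted, BIRC6 had a log2 ratio of 0.39, XIAP of -0.49, BIRC3 of -0.69, BIRC2 of -1.01, DIABLO of -0.41 and HTRA2 of -0.10, so the direction of each was kept. The source of this length trend was not tested.

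**Figure D4:**
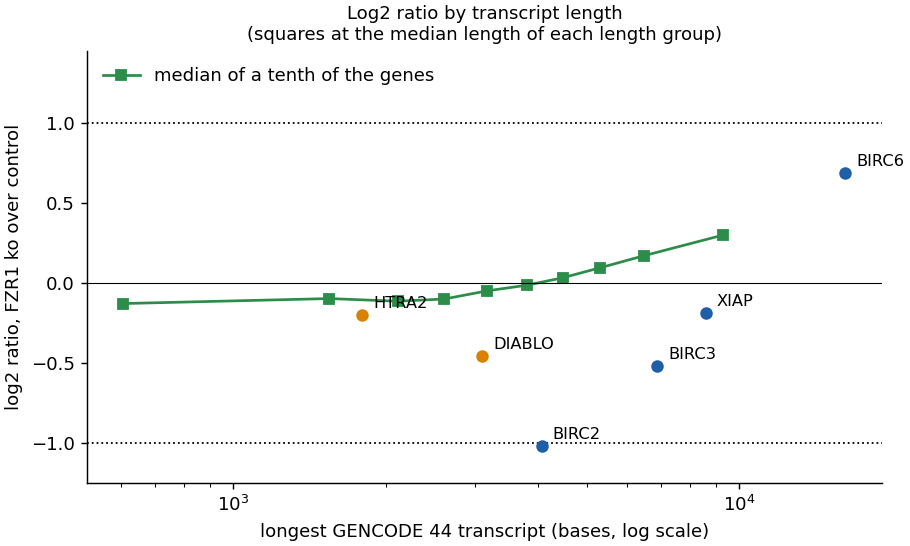
Log2 ratio of FZR1 ko over control (vertical axis) against the length of the longest annotated transcript in bases (horizontal axis, log scale), with the median of each of 10 groups of genes as green squares, the IAP genes as blue points and the antagonists as orange points. The medians go from -0.13 to 0.30, BIRC6 lies above them and the other 5 genes lie below.

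Of the BIRC6 partners, UBA6, the ubiquitin-activating enzyme that charges it, had 5.47 FPKM in control cells against 8.12 FPKM in FZR1 ko (log2 ratio 0.50). RNF41, a ligase that marks BIRC6 for degradation, was equal within 0.01 on the log2 scale, at 10.43 and 10.39 FPKM, and USP8, a deubiquitinase, had 8.29 and 6.55 FPKM (-0.30). MAP1LC3B, an autophagy protein that BIRC6 ubiquitinates, had 127.24 and 62.93 FPKM (-1.004), and it was within 2-fold when the ratios were centred on the median (-0.9994), when the libraries were scaled to the same sum (-0.9983), with a pseudocount of 5 FPKM (-0.961) and with the length trend removed (-0.9542). Thus 1 of these 4 genes was past 2-fold in the lower direction, beside 6.72% of all genes.

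Both antagonists were lower in FZR1 ko, and neither was past 2-fold. DIABLO (Entrez gene 56616), on the minus strand of chromosome 12 from 122207662 to 122227456, had 39.78 FPKM in control cells against 28.68 FPKM in FZR1 ko, with a log2 ratio of -0.46. HTRA2 (Entrez gene 27429), a serine protease gene on the plus strand of chromosome 2 from 74529405 to 74533556, had 28.13 and 24.35 FPKM, a log2 ratio of -0.20. The control library was the higher one for each, and the difference was larger for DIABLO.

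In the GENCODE 44 annotation DIABLO shares 2192 and 1139 exonic bases with a pair of protein-coding genes on its own strand, which were not analysed here and whose reads could not be told from its own there by strand. Both DIABLO and HTRA2 also overlap a neighbour on the opposite strand, and the deposited values are not stated to use strand, so reads of such partners cannot be told apart. Of the stretches of 50 bases in the main DIABLO transcript, 60.6% also occur, read on the other strand, in B3GNT4, which had 6.64 FPKM in control cells against 0.98 FPKM in FZR1 ko. For HTRA2 the share was 29.0%, in LOXL3, which had 2.2 and 2.62 FPKM. HTRA2 also shares 165 exonic bases with AUP1, which had 189.14 and 147.0 FPKM. BIRC3 and BIRC6 each overlap an antisense lncRNA in exons as well, by 126 and 49 bases, and the lncRNAs were not analysed here. The part of such partners in the values of these 4 genes was not tested.

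The other proteins that leave the intermembrane space with DIABLO went both ways. Cytochrome c (CYCS), which assembles the apoptosome, had 105.97 FPKM in control cells against 67.49 FPKM in FZR1 ko (log2 ratio -0.64). AIFM1, the apoptosis-inducing factor, had 21.96 and 33.59 FPKM (0.59). ENDOG, a mitochondrial nuclease, had 61.6 and 51.01 FPKM (-0.27). None of these 3 was past 2-fold, beside 13.5% of all genes.

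Among genes that act on IAPs or on their antagonists, 4 of 6 were kept and none was past 2-fold in either direction, beside 13.5% of all genes kept. PARL, the rhomboid protease of the inner membrane that trims DIABLO, had 16.23 FPKM in control cells against 26.43 FPKM in FZR1 ko (log2 ratio 0.67). HAX1, a mitochondrial partner of HTRA2 and the highest of the list, had 149.71 and 109.81 FPKM (-0.44). GSPT1, a translation release factor whose processed form binds IAPs, had 24.88 and 22.36 FPKM (-0.15). AREL1, a ligase for released antagonists, had 6.57 and 7.11 FPKM (0.10, and -0.071 with the length trend removed). XAF1, an XIAP-binding protein, had 0.84 and 0.67 FPKM, and SEPTIN4, whose short form antagonises XIAP, had 0.28 and 0.39 FPKM, both too low to be kept.

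Of the other IAP genes, 3 of 4 were kept, and none was past 2-fold, beside the same 13.5% of all genes. BIRC5 (survivin), which works mainly in mitosis, was the highest IAP transcript of all, at 70.21 FPKM in control cells against 57.28 FPKM in FZR1 ko (log2 ratio -0.29). BIRC7, an IAP best known from melanoma, had 12.43 and 20.83 FPKM (0.70). NAIP, a sensor of bacterial proteins in the inflammasome, had 1.11 and 2.12 FPKM (0.56), and BIRC8 was listed at 0 in both libraries. BIRC6, BIRC7 and NAIP were thus higher and XIAP, BIRC2, BIRC3 and BIRC5 lower in FZR1 ko.

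The balance of transcripts between antagonists and IAPs was compared within each library. The 4 IAP genes summed to 66.49 FPKM in control cells against 40.17 FPKM in FZR1 ko, and the antagonists to 67.91 and 53.03 FPKM. The ratio of antagonists to these 4 IAPs was 1.02 in control and 1.32 in FZR1 ko. The IAP sum leaves out BIRC5 (70.21 and 57.28 FPKM), BIRC7 (12.43 and 20.83 FPKM) and NAIP (1.11 and 2.12 FPKM). The ratio and its difference between the libraries therefore depend on which IAPs are summed. BIRC2 made up 59.7% of the IAP sum in control and 47.4% in FZR1 ko, BIRC3 29.7% and 33.5%, XIAP 8.39% and 11.9%, and BIRC6 2.14% and 7.22%. Without BIRC2 the ratio was 2.54 in control and 2.51 in FZR1 ko, so the difference between the libraries in this ratio rested on BIRC2. These are sums of mRNA levels, and protein was not measured in these libraries.

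**Figure D5:**
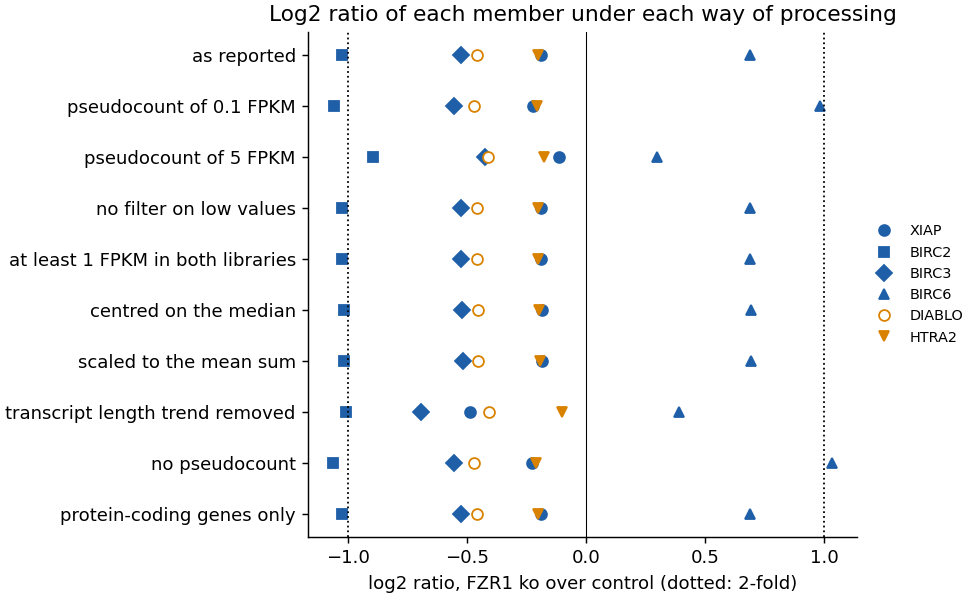
Log2 ratio of FZR1 ko over control (horizontal axis) of the 6 genes under each way of processing (rows), with the IAP genes in blue and the antagonists in orange, and 2-fold as dotted lines. No gene crosses 0, BIRC2 ranges from -1.06 to -0.89, and BIRC6 ranges most, from 0.30 to 1.03.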

How the data were processed

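Total RNA of 1 control and 1 FZR1 ko culture, both treated with cisplatin, was read on a BGISEQ-500 sequencer. The authors aligned reads to the hg38 transcriptome with Bowtie2, quantified them with RSEM and deposited FPKM per Entrez gene ID to 2 decimals. The submitters' processing notes also name Trimmomatic 0.36, HISAT2 2.1.0 and Bowtie2 2.2.5. Annotation version, strand setting and read numbers are not given in the sources used here. Of 24663 rows, 1630 have no value. Of the 23033 gene IDs, 99.5% matched a RefSeq symbol (GRCh38.p14).

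Log2 ratios were computed from the deposited FPKM with a pseudocount of 1 FPKM and no test. The computation was tested on simulated data with large changes and little noise, without low genes. That simulation does not cover values near the 2-fold limit, as for BIRC2, or low genes such as BIRC6. Loci and promoter sequences come from RefSeq, and transcripts, lengths and overlaps from GENCODE 44. The 6 genes and the gene lists were chosen with earlier results of these data known, and the motifs, overlaps and neighbours were added after the values were seen. Named were the members, FZR1, the genes of lists of up to 6, apart from a few results not reported here, and of longer lists the highest gene and the larger differences, together with TRAF1, TRAF2, TRAF3, MAP3K14 and SOD2, chosen after their values were seen. Alternatives were other pseudocounts, filters and thresholds, centring, scaling and removal of the length trend. Computation was in Python 3.11.15 with pandas 2.3.3 and numpy 2.4.6, sequences were read with Biopython 1.88, and plots were drawn with matplotlib 3.10.9.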

Additional observations from a re-analysis of the deposited data

How the results depend on the processing

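No paired analysis was possible because there is a single library of each genotype, and for the same reason no library could be left out. The absence of pseudocount and the restriction to protein-coding genes were added after the data were seen. Of 54 alternative values of the 6 members, 52 kept their direction and their side of 2-fold. The exceptions were BIRC2 with a pseudocount of 5 FPKM (-0.89) and BIRC6 without a pseudocount (1.03). The other filters and the restriction to protein-coding genes leave the ratio of a gene as it is. Those values were equal by construction and check nothing, here or for the other listed genes below. Centring and scaling moved the ratios little, as for BIRC2 (-1.0173 and -1.0163, beside -1.0221 as reported). Against 1830 genes past 2-fold (911 lower, 919 higher), 2818 (1460 higher) passed with a pseudocount of 0.1 FPKM, 453 (270 lower, 183 higher) with 5 FPKM and 150 (89 lower, 61 higher) at 4-fold, and 1422 were higher without a pseudocount. The median of the other IAP genes, 0.56, was 0.22 with a pseudocount of 5 FPKM and 0.28 without a filter, where BIRC8 at 0 enters. The remaining 70 of 72 list medians moved by less than 0.25. Of 593 alternative values of the other listed genes and FZR1, 574 kept direction and side of 2-fold and 7 changed sign, 6 of them with the length trend removed. Those 7 belonged to genes within 0.14 of 0 as reported, among them AREL1 (0.10 to -0.071), NFKB1 (0.14 to -0.035), VIM (-0.093 to 0.0079) and, with scaling, RNF41 (-0.0051 to 0.0005). Low levels such as those of BIRC6 depend most on the pseudocount.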

Other observations

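The neighbours of BIRC3 and BIRC2 on chromosome 11 were examined after the values of the pair were seen. Within 500 kb on either side, 4 other genes were kept, of which 3 were higher in FZR1 ko. YAP1, the effector of the Hippo pathway on one side of the pair, had 25.74 FPKM in control cells against 36.34 FPKM in FZR1 ko (log2 ratio 0.48). TMEM123, a membrane protein gene on the other side and 49.1 kb from the start of BIRC2 by its lower coordinate, had 46.89 and 64.45 FPKM (0.45). CEP126, a centrosomal protein gene, had 1.36 and 2.48 FPKM (0.56). The matrix metalloproteinase MMP7 had 5.24 and 2.36 FPKM (-0.89). The nearest kept genes on both sides of BIRC3 and BIRC2 were thus higher in FZR1 ko, opposite to the pair itself.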
